A study of Mus musculus with 8 samples.

Results

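Transient receptor potential (TRP) channels were examined in RPE eyecups of Bbs8-/- mice, with emphasis on Trpm1 and Trpm3, the genes that carry the microRNAs of pigment cells in their introns. The 8 genes, Trpm1, Trpm3, Trpm4, Trpm7, Trpv2, Trpv4, Trpc1 and Pkd2, were taken by symbol from the 31053 genes of the count tables, and all 8 were found. They were chosen by name with the genotype differences of these same libraries already known, Trpm1 and Trpm3 having passed the threshold. Their fold changes and FDR values are therefore given as descriptions. The libraries were made with a QuantSeq kit, which sequences only the 3′ ends of polyadenylated RNA, from untreated mice of strain C57/Bl6 at postnatal day 11 (P11). The groups were 4 libraries of wild-type littermates (Bbs8+/+) and 4 of Bbs8 knockout animals (Bbs8-/-). The paper counted each animal as a biological replicate. Bbs8, listed as Ttc8, encodes a subunit of the BBSome, a complex that moves membrane proteins in cilia. RNA came from the back of the eye after the neural retina and the front structures had been dissected away, so that choroid and sclera were measured together with the retinal pigment epithelium (RPE).

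TRP channels are cation channels of the cell membrane and of organelles that respond to lipids, calcium, temperature, osmotic stretch or stretch of the cell surface. In the eye, Trpm1, also named melastatin, is made by pigment cells and by the ON bipolar cells of the retina, where it carries the response to light. Trpm3 is a calcium-permeable channel opened by heat and by the steroid pregnenolone sulfate, and is abundant in the RPE. An intron of Trpm1 holds miR-211 and an intron of Trpm3 holds miR-204, microRNAs known for their role in the differentiation of RPE and melanocytes.

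The sequences of the intronic microRNAs show how alike their products are. The RefSeq mature sequences (GRCm38.p6) are written 5′ to 3′, with the seed, bases 2 to 8, in capitals.
mmu-miR-204-5p: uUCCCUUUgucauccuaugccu
mmu-miR-211-5p: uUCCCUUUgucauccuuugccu
Their seeds were identical, and 21 of 22 positions matched. The only difference was A17U, counted from the 5′ end, with the base of miR-204-5p first. Of 1679 mature mouse microRNAs in the table, 3 had this seed, the other being miR-7670-3p. The 3p arms differed in their seeds, CUGGGAA for miR-204-3p and CAAGGAC for miR-211-3p.

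Both hairpins lie on the strand of their host. The Mir211 hairpin (chr7:64205806-64205911) is in intron 6 of the longest coding Trpm1 transcript, which has 27 exons, and within an intron of 8 of the 13 annotated coding transcripts. The Mir204 hairpin (chr19:22750605-22750672) is in intron 6 of the longest coding Trpm3 transcript, which has 25 exons, and within an intron of 15 of 17 coding transcripts. From the hairpin to the annotated 3′ end of the host the distance was 63864 bases for Trpm1 and 244738 bases for Trpm3. The 3′ counts therefore report the polyadenylated host mRNA, and the microRNAs themselves were not analysed here.

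**Figure D1:**
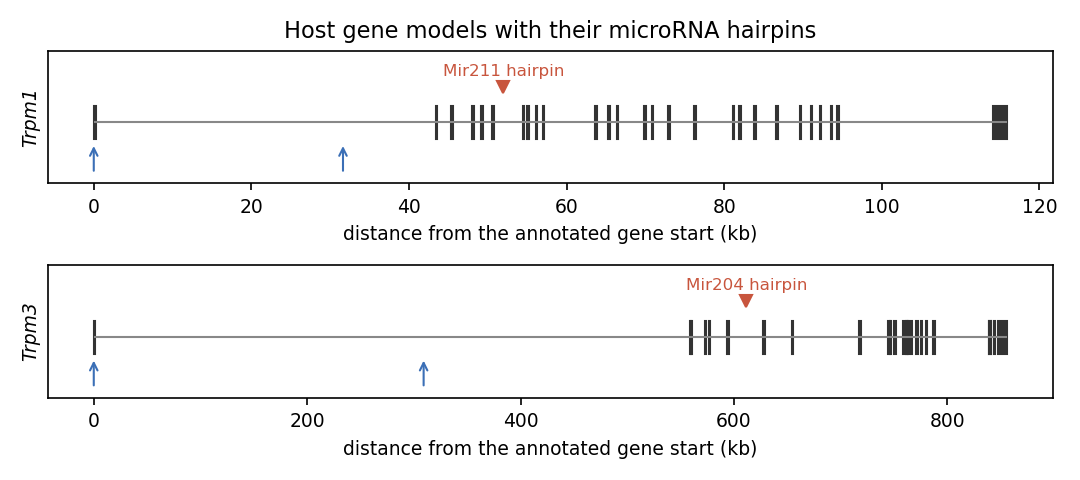
Gene models of Trpm1 and Trpm3, drawn from the annotated gene start (x axis, kb) with exons of the longest coding transcript as black boxes, the microRNA hairpin as a triangle and RefSeq transcript starts as arrows. Both hairpins lie in intron 6, and the annotated gene end lies 63864 bases downstream of Mir211 and 244738 bases downstream of Mir204.

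The libraries held 1636725 to 2884983 gene counts, and the totals did not differ by genotype beyond the spread between libraries (two-sided exact permutation p = 0.0857, where 0.0286 is the smallest that 4 against 4 allows). The limit of 3 counts corresponded to 1.04 to 1.83 CPM, which covers counting error only. The targeted gene Ttc8 was lower in every Bbs8-/- library, at 2.30 to 9.72 CPM against 14.7 to 21.7 CPM (log2 fold change -1.95, SE 0.317, edgeR quasi-likelihood FDR 2.75e-06). RPE and pigment cell markers were abundant, with Ttr at 10960 ± 514 CPM, Dct at 10380 ± 126 CPM and Rpe65 at 2002 ± 98.5 CPM in Bbs8+/+ (SD, n = 4). Lens genes were higher in Bbs8-/- (676 ± 19.99 against 241 ± 17.02 CPM summed), as were Y-linked genes (114 ± 6.24 against 61.4 ± 2.77 CPM), and the part of either difference in the results below was not tested. Y-linked genes were read in all 8 libraries, with sums of 59.1 to 65.02 CPM in Bbs8+/+ and 108 to 120 CPM in Bbs8-/-, and the labels do not give the sex of the animals. Whether a library came from a single animal was not tested. Uniquely aligned reads that matched no counted gene feature were 42.1% to 43.4% in Bbs8+/+ and 44.1% to 44.4% in Bbs8-/-, without overlap. Their part in the results was not tested either.

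In Bbs8+/+ eyecups Trpm1 was the most abundant of the 8 genes, followed by Trpm3, Trpm7 and Pkd2. Because a 3′ library gives each transcript a single tag position, levels in CPM (counts scaled to a common library size, TMM-normalized) were compared between genes without division by length. The mean levels were 536 ± 34.0 CPM for Trpm1, 351 ± 19.1 CPM for Trpm3, 180 ± 4.69 CPM for Trpm7 and 91.4 ± 8.22 CPM for Pkd2 (SD, n = 4), and the libraries of neighbours in this order did not overlap. Trpc1 (20.1 ± 4.70 CPM), Trpv4 (16.4 ± 4.45 CPM) and Trpm4 (14.4 ± 4.45 CPM) overlapped and had no order beyond their spread, and Trpv2 was lowest at 4.14 ± 2.06 CPM. In Bbs8-/- Trpm1 (442 ± 12.9 CPM) and Trpm3 (408 ± 9.28 CPM) came close, with the lowest Trpm1 library at 424 and the highest Trpm3 library at 421 CPM. Trpm1 and Trpm3 together made up 70.0% of all counts in the 28 TRP channel genes of the tables, and the 8 genes made up 97.3%.

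**Figure D2:**
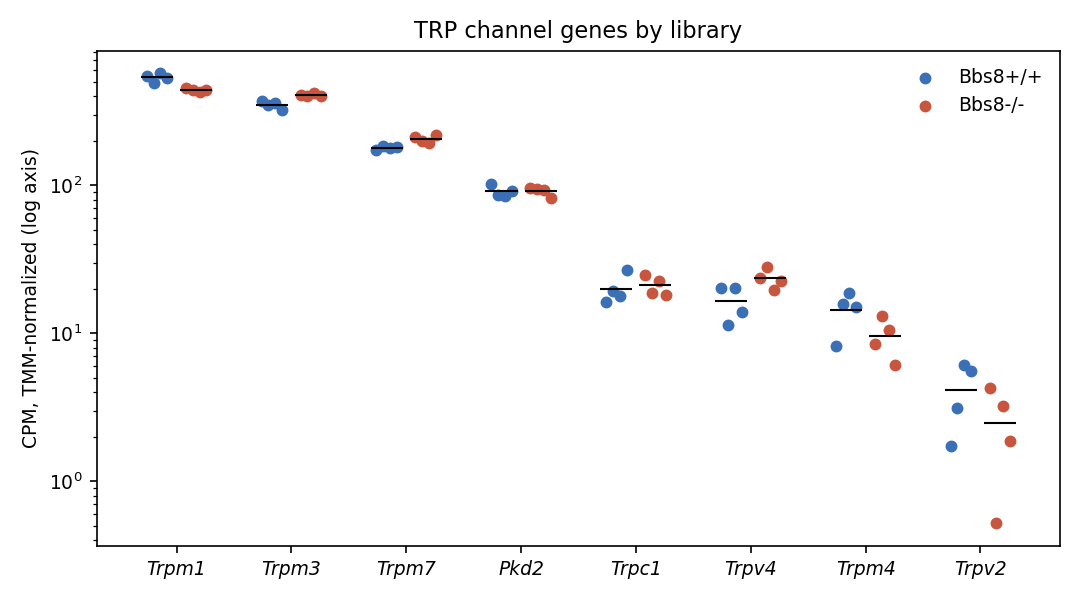
Level of the 8 TRP channel genes in each library (y axis, TMM-normalized CPM on a log axis), with blue points for Bbs8+/+, red points for Bbs8-/- and a line at each mean (n = 4). The genotypes do not overlap for Trpm1, Trpm3 and Trpm7, and the other 5 genes overlap.

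Trpm1 was lower in Bbs8-/- RPE eyecups. Its level was 551, 492, 572 and 530 CPM in Bbs8+/+ replicates 1 to 4, while the Bbs8-/- libraries stood at 456, 442, 424 and 444 CPM. All Bbs8-/- libraries lay under all Bbs8+/+ libraries, and replicate 2 was the lowest of the wild type. On the log2 scale the difference was -0.28 (SE 0.0597, edgeR FDR 0.000881), a ratio of 0.824. Between 750 and 1516 reads per library stood behind these values. Trpm1 (ENSMUSG00000030523) lies on the plus strand at chr7:64153835-64269775 in mm10, where GENCODE lists 23 transcripts with 21 distinct 3′ ends, so that the total over its ends was measured and not any single form.

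Trpm3 was higher in the same libraries. Its level was 369, 349, 361 and 325 CPM in Bbs8+/+ replicates 1 to 4, while the Bbs8-/- libraries stood at 408, 399, 421 and 404 CPM. No Bbs8-/- library fell into the range of the wild type, although the gap between 369 and 399 CPM was narrow. On the log2 scale the difference was 0.22 (SE 0.0637, edgeR FDR 0.0393), a ratio of 1.16. This value lay close to the threshold of 0.05 and passed it neither with library totals only (FDR 0.0589) nor without a filter on low counts (FDR 0.0546). With the replicate number as a block it missed the threshold too (FDR 0.0665). Leaving out Bbs8+/+ replicate 2 or 4 raised the edgeR FDR to 0.0915 or 0.182, and leaving out Bbs8-/- replicate 1, 2, 3 or 4 raised it to 0.083, 0.0519, 0.148 or 0.0649, with log2 fold changes between 0.18 and 0.25 over all such fits. Trpm3 (ENSMUSG00000052387) is at chr19:22139046-22995410 on the plus strand, and its 3′ end overlaps an antisense transcript, C330002G04Rik, which had 0 to 5 counts per library. How strand was treated in the counting is not given in the sources used here, and the effect of this overlap on the Trpm3 count was not tested.

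In this fit 309 of 13813 tested genes, 2.24%, passed FDR 0.05, 1.1% upward and 1.14% downward. Of the 8 TRP genes, all of which were tested, 1 was past it upward and 1 downward, namely the pair for which they were chosen. Genotypes without overlap were seen for 3 of the 8 and for 7.38% of all tested genes. The median log2 fold change was 0.03 over the 8 genes and -0.0041 over all tested genes.

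Trpm7, an ion channel fused to a protein kinase that admits magnesium, calcium and zinc, did not pass the threshold although its libraries were separated. It was found at 174, 185, 178 and 182 CPM in Bbs8+/+ and at 213, 201, 192 and 220 CPM in Bbs8-/- replicates 1 to 4. Its log2 fold change was 0.20 (SE 0.0794, edgeR FDR 0.218). The 95% interval ran from 0.04 to 0.35, so that a difference of the size found for Trpm3 lies inside it.

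Trpm4, a calcium-activated channel that conducts sodium and potassium, had 13 to 43 counts per library. Its level was 8.20, 15.7, 18.7 and 15.03 CPM in Bbs8+/+ and 8.50, 13.1, 10.6 and 6.08 CPM in Bbs8-/-. Bbs8+/+ replicate 1 lay among the knockout libraries, and the fold change on the log2 scale was -0.59 (SE 0.290, edgeR FDR 0.365). Trpv2, a channel of the vanilloid group that is known from macrophages, had 1 to 16 counts per library. At 1.73, 3.15, 6.08 and 5.59 CPM in Bbs8+/+ and 4.25, 0.523, 3.21 and 1.87 CPM in Bbs8-/- it lay near the limit of 3 counts. Its log2 fold change of -0.76 had a 95% interval from -1.90 to 0.39, and a change of ordinary size was not detectable at this depth.

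Trpv4, an osmotically and mechanically gated calcium channel, had 29 to 54 counts per library. The libraries showed 20.3, 11.4, 20.1 and 13.99 CPM in Bbs8+/+ and 23.7, 28.2, 19.8 and 22.4 CPM in Bbs8-/-. Only Bbs8-/- replicate 3 fell into the range of the wild type, below 2 of its libraries. Its log2 fold change was 0.52 (SE 0.225, edgeR FDR 0.271). Trpc1, which forms channels with other TRPC subunits, was 16.4, 19.3, 17.8 and 26.9 CPM in Bbs8+/+ and 24.9, 18.8, 22.5 and 18.2 CPM in Bbs8-/-. The genotypes overlapped fully, with a log2 fold change of 0.05 (SE 0.218, edgeR FDR 0.955) whose sign depended on single libraries.

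Pkd2 encodes polycystin-2, the member of the family known to act in the primary cilium. Its level was 103, 86.6, 84.2 and 91.9 CPM in the wild type and 96.6, 94.1, 93.2 and 81.8 CPM in the knockout. The means were 91.4 ± 8.22 and 91.4 ± 6.56 CPM, and the libraries were intermingled. The log2 fold change was -0.0020 with a 95% interval from -0.21 to 0.21 (edgeR FDR 0.996). This interval holds the value of Trpm7 but not that of Trpm1 or, by a narrow margin, that of Trpm3. Pkd1, the partner of Pkd2 in the polycystin complex, averaged 97.5 ± 7.16 CPM in the wild type and 95 ± 9.79 CPM in the knockout (log2 fold change -0.04, edgeR FDR 0.927). In the list of polycystin-1 family genes, fibrocystin and polycystin folding factors, 3 of 8 genes were tested and 0 passed the threshold in edgeR, with 0 at an unadjusted p under 0.05 and 0 in DESeq2 (median log2 fold change -0.04). The folding factors Ganab and Dnajb11 had log2 fold changes of -0.23 (edgeR FDR 0.450) and 0.01 (edgeR FDR 0.988).

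**Figure D3:**
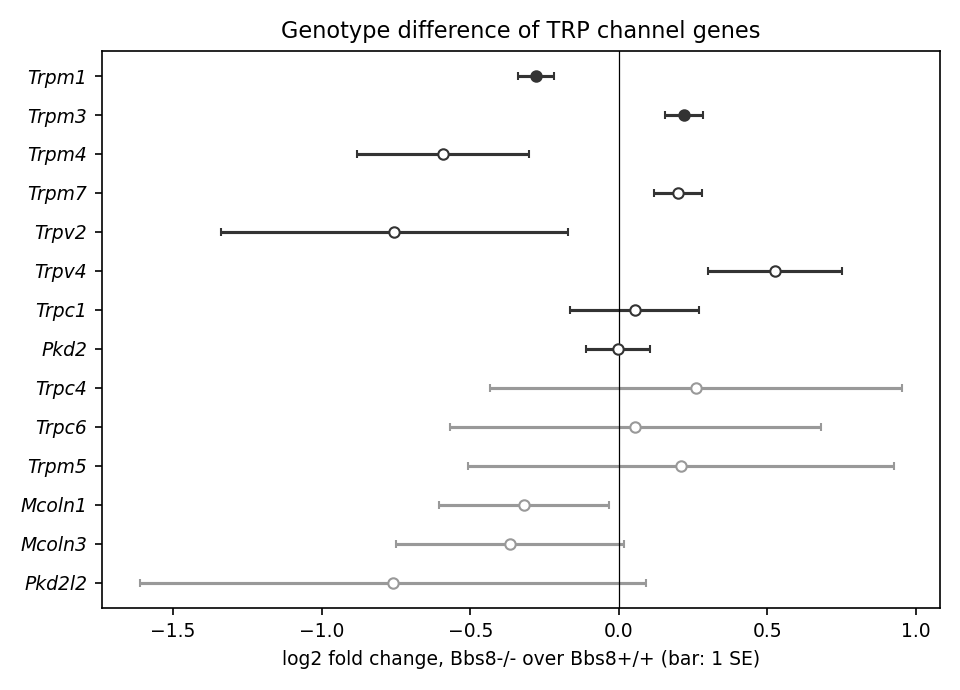
Log2 fold change of Bbs8-/- over Bbs8+/+ (x axis, with bars of 1 standard error) for the 8 chosen TRP genes (black) and 6 other TRP genes with enough counts (grey). Filled points have an edgeR FDR under 0.05, which holds for Trpm1 at -0.28 and Trpm3 at 0.22, and the least abundant genes have the widest bars.

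The other 20 TRP channel genes contributed few reads. Of these, 9 had 0 counts in every library (Trpa1, Trpc2, Trpc7, Trpm8, Trpv1, Trpv3, Trpv5, Mcoln2 and Pkd2l1), which at the limit of 3 counts allows up to 1.04 to 1.83 CPM in each. Among the 7 that passed the filter were Trpc4, Trpc6, Trpm5, Mcoln1, Mcoln3 and Pkd2l2. The highest was Mcoln1, the calcium release channel of lysosomes, at 13.0 ± 1.58 CPM in Bbs8+/+ and 10.5 ± 3.17 CPM in Bbs8-/- (log2 fold change -0.32, edgeR FDR 0.714). Mcoln3 followed at 7.92 ± 3.25 and 6.09 ± 3.14 CPM. Trpc4, Trpc6, Trpm5 and Pkd2l2 had log2 fold changes of 0.26, 0.06, 0.21 and -0.76 with standard errors of at least 0.624. Of the 7, 0 passed the threshold in edgeR, 0 had an unadjusted p under 0.05 (lowest 0.268) and 0 passed in DESeq2.

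The sum over all 28 TRP genes was 1280, 1207, 1291 and 1221 CPM in Bbs8+/+ and 1268, 1232, 1212 and 1231 CPM in Bbs8-/-, and the genotypes overlapped. Within that sum the share of Trpm1 was 42.9% ± 1.501 in Bbs8+/+ and 35.7% ± 0.477 in Bbs8-/-, and that of Trpm3 was 28.1% ± 1.06 and 33.0% ± 1.154 (SD, n = 4 each). The ratio of Trpm1 to Trpm3 reads, which does not depend on scaling between libraries, was 1.49, 1.41, 1.58 and 1.63 in Bbs8+/+ replicates 1 to 4. It was 1.12, 1.11, 1.01 and 1.10 in Bbs8-/- replicates 1 to 4, where the host genes were thus read almost equally often. These values restate the differences for which both genes were chosen and were not tested.

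Since Trpm1 is made by pigment cells and by ON bipolar cells, markers of both were compared. Of 14 genes for melanosomes and melanin synthesis, all tested, 5 were down-regulated and 0 up-regulated (35.7% called, median log2 fold change -0.23, 13 of 14 below 0). They were Tyrp1 (-0.56), Slc45a2 (-0.61), Mlana (-0.47), Dct (-0.25) and Pmel (-0.25), with edgeR FDR values of at most 0.000309. Tyrp1 and Dct encode melanin enzymes, Pmel the fibril protein of the melanosome and Slc45a2 a melanosome transporter. The most abundant members that did not pass the threshold were Slc24a5 (550 ± 42.3 and 485 ± 12.0 CPM, -0.18, edgeR FDR 0.0842), Myo5a (-0.21, edgeR FDR 0.0830), Tyr (273 ± 10.7 and 276 ± 22.1 CPM, 0.02, edgeR FDR 0.955) and Mlph (-0.19, edgeR FDR 0.282). Tyr, which encodes tyrosinase, the first enzyme of melanin synthesis, was the member not below 0. The summed level of the list was 15090 to 15770 CPM in Bbs8+/+ and 12510 to 13170 CPM in Bbs8-/-, without overlap.

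Relative to this sum Trpm1 was 0.0365, 0.0320, 0.0377 and 0.0336 in the wild-type libraries and 0.0364, 0.0336, 0.0329 and 0.0347 in the knockout libraries. The genotypes overlapped, and the means of 0.0350 ± 0.00262 and 0.0344 ± 0.00154 (SD, n = 4) had a ratio of 0.984. Dct alone made up 10380 of 15350 CPM of this sum in Bbs8+/+, so that the ratio mostly sets Trpm1 (-0.28) against Dct (-0.25), and single genes of the list ranged more widely. In a bulk eyecup, fewer pigment cells and less of these RNAs per cell cannot be told apart. Trpm3 over the melanosome sum was 0.0229 ± 0.00169 in Bbs8+/+ and 0.0318 ± 0.00110 in Bbs8-/-, without overlap.

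Genes of melanocytes, the neural crest pigment cells of the choroid, were fewer in number. Of 8 tested, 2 were down-regulated and 0 up-regulated (25.0% called, median -0.17). Among them was the endothelin receptor gene Ednrb (-0.43, edgeR FDR 1.97e-05). Sox10, the transcription factor that defines this lineage, was 130 ± 7.88 and 125 ± 16.2 CPM (log2 fold change -0.05, edgeR FDR 0.878), and the receptor gene Kit was 34.2 ± 6.51 and 33.5 ± 4.25 CPM (edgeR FDR 0.974).

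The list of RPE genes was mixed. Of 16 tested, 2 were up-regulated and 0 down-regulated (12.5% called, median 0.10, 5 of 16 below 0). The sum, of which Ttr made up the larger part, was 18450 to 19500 CPM in Bbs8+/+ and 19980 to 20330 CPM in Bbs8-/-. The up-regulated genes were Otx2 (0.48, edgeR FDR 6.08e-12), a transcription factor of the RPE, and Krt18 (0.26, edgeR FDR 0.0186), a keratin of simple epithelium. Krt18 missed the threshold when Bbs8+/+ replicate 1 or 2 or Bbs8-/- replicate 1 was left out (FDR up to 0.0870). The highest of the others were Ttr (0.09, edgeR FDR 0.0689), Rgr (0.05, edgeR FDR 0.681), Rpe65 (-0.13, edgeR FDR 0.0842) and Rdh5 (0.09, edgeR FDR 0.480). Relative to the RPE sum Trpm3 was 0.0184 ± 0.000816 in Bbs8+/+ and 0.0203 ± 0.000563 in Bbs8-/-, a ratio of 1.10 with no overlap, and Trpm1 was 0.0282 ± 0.00183 and 0.0220 ± 0.000633, a ratio of 0.780.

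**Figure D4:**
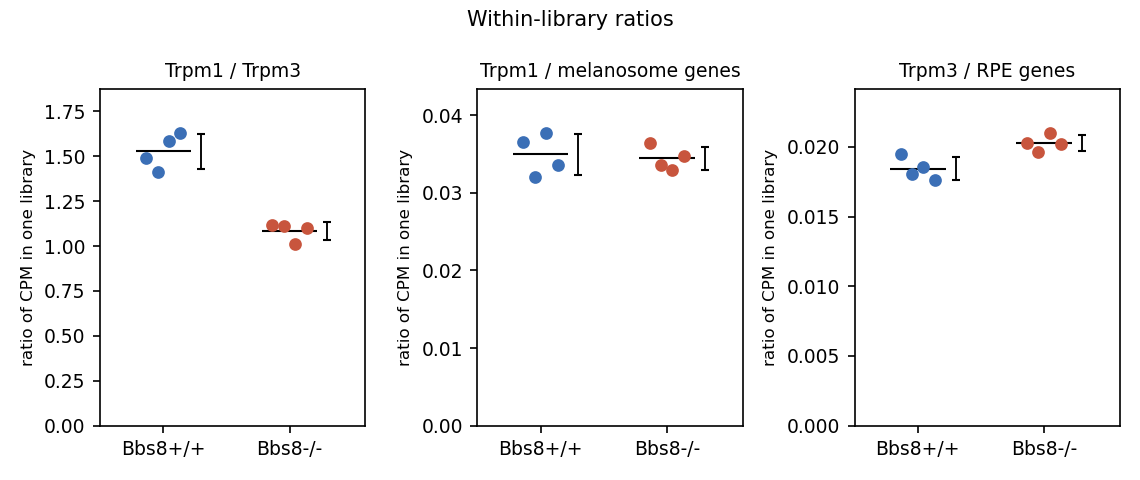
Within-library ratios for Trpm1 to Trpm3, Trpm1 to the summed melanosome genes and Trpm3 to the summed RPE genes (y axes from 0), with a point per library, a line at the mean and a bar of 1 SD (n = 4 per genotype). Trpm1 to Trpm3 falls from a mean of 1.53 to 1.08 without overlap, while Trpm1 to the melanosome genes overlaps between genotypes.

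Genes of ON bipolar cells had low counts. Grm6, the glutamate receptor of these cells, reached at most 1.73 CPM and Gng13 at most 1.05 CPM, while Lrit3 (3.04 to 14.97 CPM), Rgs11 (3.54 to 11.0 CPM) and Gnb3 (3.54 to 7.29 CPM) were higher. Of 12 genes on the list 10 were tested and 0 passed the threshold in edgeR or DESeq2, with 2 at an unadjusted p under 0.05 (median log2 fold change 0.22). Their sum of 60.6 to 85.7 CPM in Bbs8+/+ and 76.7 to 104 CPM in Bbs8-/- overlapped and consisted mostly of Prkca (33.2 to 59.7 CPM per library), a gene with wide expression. The log2 fold changes were -0.24 for Lrit3 (edgeR FDR 0.863), 0.85 for Rgs11 (edgeR FDR 0.355) and 0.42 for Gnb3 (edgeR FDR 0.769). The part of these cells in the level of Trpm1 was not tested.

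The transcription factors known for pigment cells and eye field were then examined. Of 15 genes 13 were tested, and 1 rose and 2 fell (23.1% called, median -0.05). Mitf, the regulator of pigment cell genes that is known to drive Trpm1 in melanocytes, averaged 268 ± 27.8 CPM in Bbs8+/+ and fell to 209 ± 21.2 CPM (-0.36 on the log2 scale, SE 0.0765, edgeR FDR 0.000669). Sox9 fell from 220 ± 14.1 to 175 ± 6.53 CPM (-0.33, edgeR FDR 0.00429, but 0.0671 without Bbs8+/+ replicate 2). Otx2 rose from 555 ± 11.6 to 772 ± 21.98 CPM. Six3, a factor of the eye field, was 546 ± 43.6 and 529 ± 35.1 CPM (edgeR FDR 0.817).

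The promoters of Trpm1 are shown because Mitf binds the E-box motifs CACGTG and CATGTG. The latter reads CACATG when taken from the other strand. RefSeq (GRCm38.p6) gives 2 start sites, and each window holds 250 bases before and 50 after the start, 5′ to 3′ on the plus strand, with these motifs in capitals. The first window is chr7:64153585-64153884 and the second chr7:64185209-64185508.
Trpm1 first start: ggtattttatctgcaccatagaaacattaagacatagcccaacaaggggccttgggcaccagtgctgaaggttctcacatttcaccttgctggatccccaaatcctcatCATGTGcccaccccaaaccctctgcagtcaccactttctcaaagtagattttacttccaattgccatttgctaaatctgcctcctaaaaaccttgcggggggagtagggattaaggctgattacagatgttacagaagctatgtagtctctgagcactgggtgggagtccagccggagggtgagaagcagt
Trpm1 second start: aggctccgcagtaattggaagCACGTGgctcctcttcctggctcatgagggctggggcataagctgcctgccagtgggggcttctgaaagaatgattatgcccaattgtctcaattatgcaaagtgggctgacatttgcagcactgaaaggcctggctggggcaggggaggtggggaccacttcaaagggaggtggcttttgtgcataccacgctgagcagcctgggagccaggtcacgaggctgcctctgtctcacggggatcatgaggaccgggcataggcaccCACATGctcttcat
The first window holds CATGTG at 141 bases before the start. In the second window CACGTG begins 229 bases before the start and CACATG 36 bases after it. Among 32851 mouse promoter windows of this length, 7.15% hold CACGTG and 14.2% hold CATGTG or CACATG, so that such matches are common. Windows were given for 7 of the 8 genes, 11 in all, and the only other matches were 2 copies of CACGTG in that of Trpm7. No match was found in the windows of Trpm3, Trpv2, Trpv4, Trpc1 and Pkd2, which says only that these letters are not there. A match is a description of the sequence and not a site of binding.

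Genes known as targets of miR-204 or miR-211 were counted next, since their hosts moved in opposite directions. Of 18 genes listed from general knowledge 17 were tested, and 1 rose and 1 fell (11.8% called, median -0.0065). An unadjusted p under 0.05 was found for 7 of the 17, against 13.0% of all tested genes. Among them Ezr and Sirt1 were higher in Bbs8-/-, and Tgfbr2, Snai2, Runx2, Angpt1 and Edem1 were lower. Ezr, which encodes the microvillus protein ezrin, averaged 526 ± 23.5 CPM and rose to 647 ± 15.6 CPM (0.30 on the log2 scale, edgeR FDR 8.32e-05). Angpt1, an endothelial growth factor, fell from 208 ± 10.2 to 167 ± 10.2 CPM (-0.32, edgeR FDR 0.0104, but 0.0819 without Bbs8-/- replicate 4). The next most abundant, Bcl2 (-0.17, edgeR FDR 0.399) and Nfat5 (0.11, edgeR FDR 0.651), did not pass the threshold.

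The seed of both microRNAs pairs with AAAGGGA, which was searched on the transcript strand of the longest annotated 3′ UTR of each gene after the data had been seen, as were the promoter motifs. The sites of the pair of called targets are shown in mm10, from 14 bases before to 2 bases after the match, with the match in capitals. That of Ezr is at chr17:6738663-6738685 and that of Angpt1 at chr15:42426760-42426782, both in the 3′ UTR and on the minus strand.
Ezr: acattagttttaaaAAAGGGAaa
Angpt1: cacaatcatgtttaAAAGGGAag
Each match is followed by A, which makes an 8-base site, although the genes changed in opposite directions. Of the 18 listed genes 15 had at least 1 match and 3 (Bdnf, Meis2 and Snai2) had 0. None of the 8 TRP genes, the hosts included, had a match in its annotated 3′ UTR. Over all tested genes with a 3′ UTR, 16.9% of 13193 held AAAGGGA. Their median log2 fold change was -0.03 with 18 genes up-regulated and 34 down-regulated (2.34% called), against 0.0011 with 126 and 113 (2.18% called) in the genes without it. Among 981 genes with the 8-base form AAAGGGAA 13 were up-regulated and 20 down-regulated (3.36% called), and among 424 genes with 2 or more matches 3 and 11 (3.30% called). These shares are a description and were not tested. The 3′ UTRs with a match were longer (median 2556 against 1042 bases). The part of length in the medians was not tested.

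Calcium handling outside the TRP family was examined with 22 genes for store-operated entry, release and extrusion. Of 21 tested, 0 passed the threshold in edgeR and in DESeq2, and 0 had an unadjusted p under 0.05 (median log2 fold change -0.06), against 13.0% at that p over all tested genes. With a library left out this median ranged from -0.0323 to 0.0283. The most abundant were Itpr1, a calcium release channel of the endoplasmic reticulum, at 280 ± 21.9 and 298 ± 2.22 CPM (edgeR FDR 0.644), and the calcium pump gene Atp2b1 at 221 ± 11.9 and 226 ± 12.9 CPM (edgeR FDR 0.920). Atp2a1, the pump of skeletal muscle, was 175 ± 10.0 and 167 ± 27.96 CPM, and Stim2, a sensor of store calcium, was 145 ± 4.16 and 163 ± 16.2 CPM (log2 fold change 0.16, edgeR FDR 0.420).

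**Figure D5:**
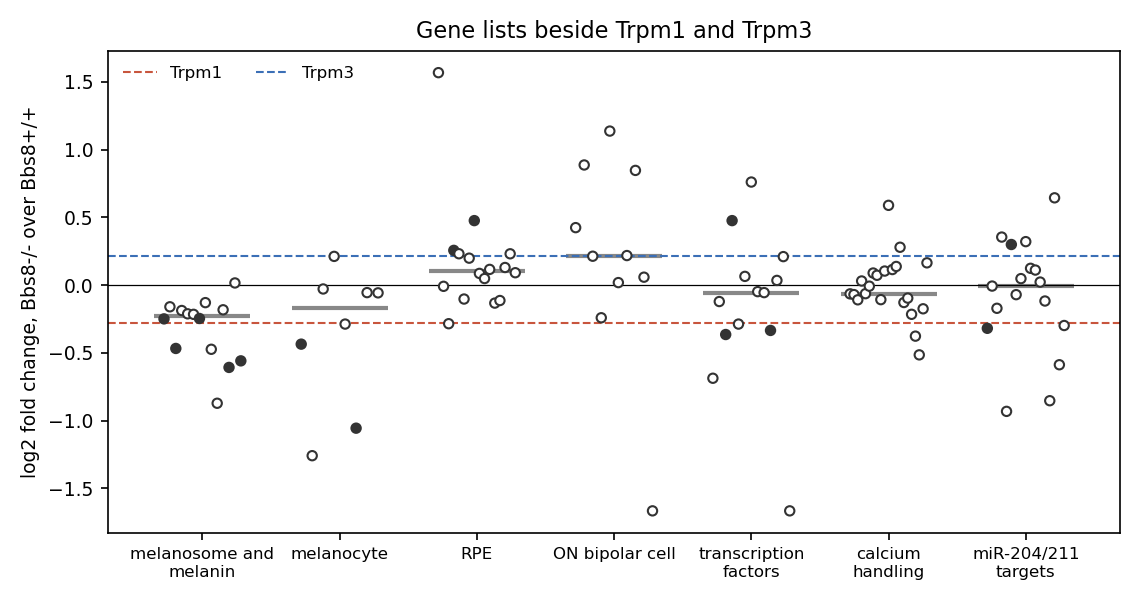
Log2 fold changes of Bbs8-/- over Bbs8+/+ (y axis) for the tested genes of 7 lists, filled where the edgeR FDR is under 0.05, with a grey line at each median and dashed lines at Trpm1 (-0.28) and Trpm3 (0.22). The melanosome genes centre on -0.23, close to Trpm1, the RPE genes on 0.10, and the calcium handling genes hold no filled point.

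Genes whose levels followed Trpm1 and Trpm3 most closely were sought among 6628 tested genes with a mean of at least 20 CPM, by Pearson correlation on log2(CPM + 1) over the 8 libraries, which share the genotype difference. For Trpm1 these were Cdh1 (r = 0.975), Creb3l1 (0.963), mt-Nd5 (0.961), Fgfr1op2 (0.955) and Col4a1 (0.954). For Trpm3 they were Vegfa (0.980), Ezr (0.978), Gab2 (0.976), Adamts5 (0.974) and Peg3 (0.963). With each genotype's mean subtracted the closest genes were others, Mndal, Supt5, Tspan9, Svep1 and Kifc3 for Trpm1 (r = 0.961 to 0.988) and Gpr89, Ube4b, Naa35, Gab2 and Tgs1 for Trpm3 (0.935 to 0.960), with Gab2 alone on both lists of Trpm3. The median correlation of Trpm1 with 13 melanosome genes was 0.660 over the 8 libraries and -0.324 after subtraction. The former restates that both differed by genotype, and 8 libraries are too few to read the latter. For Trpm3 and 15 RPE genes the medians were 0.542 and -0.0475.

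Other tissues of the eyecup were compared by marker lists, whose part in the TRP results was not tested. Macrophage and microglia genes, relevant to Trpv2, had 2 of 13 up-regulated (Csf1r and Lyz2) and sums of 522 to 573 against 634 to 669 CPM. Csf1r missed the threshold without Bbs8+/+ replicate 1 or Bbs8-/- replicate 4 (FDR up to 0.0960), and Lyz2 without Bbs8+/+ replicate 1 or 2 or Bbs8-/- replicate 2 or 3 (FDR up to 0.195). Of fibroblast and sclera genes 3 of 10 fell, of smooth muscle and pericyte genes 2 of 8, of Schwann cell and myelin genes 3 of 8, and of photoreceptor genes 2 of 16, with none rising in these 4 lists. Lens genes rose in 13 of 19 and fell in none, skeletal muscle genes rose in 2 of 15, ciliary body genes in 1 of 7 and Y-linked genes in 3 of 4. DESeq2 called 0 of the 7 ciliary body genes, 1 of the 8 smooth muscle and pericyte genes, 1 of the 13 macrophage genes and 12 of the 19 lens genes. Müller glia genes had 1 of 7 up (Clu) and 1 down (Dkk3), and of 10 endothelial genes 0 passed the threshold in edgeR.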

How the data were processed

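Total RNA of RPE eyecups was made into 8 QuantSeq 3′ libraries. The deposited files held unnormalized counts per gene from uniquely mapped reads, which the authors made by trimming with BBDuk, alignment with STAR to mm10 (Ensembl release 93) and htseq-count, 1 file per library. No molecular identifiers were named. Counter summary lines stayed out of library sizes. Reads that matched no counted gene feature were 42.1% to 44.4%, higher in every Bbs8-/- library. Ambiguous reads were 0.309% to 0.323%, both as shares of uniquely aligned reads. No files were identical, and libraries of a genotype differed by more than counting noise (mean chi-square per gene 1.87 to 3.08).

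Symbols were found for 30934 of 31053 identifiers in GENCODE M21, the same assembly. Genes reaching 1 CPM in 4 or more libraries entered the two-sided quasi-likelihood test of edgeR 4.0.16 (R 4.3.3) with TMM normalization and genotype as factor (the study used edgeR, its model formula and normalization not being given, and its multi-mapping filter was not used here), with Benjamini-Hochberg adjustment over all 13813 genes and a threshold of FDR 0.05. The SE was the log2 fold change divided by the square root of F; 95% intervals were normal intervals from it. The alternatives were DESeq2 1.42.0, other scalings and filters, the replicate number as a block, FDR 0.01, omission of Gm42418 and mitochondrial genes, and leaving out each library. The code was tested on simulated data. The members and lists were chosen with earlier results of these data known; lists were written from general knowledge of each cell type or pathway. Named were all 8 genes, Ttc8, tested TRP genes, listed genes past the threshold with up to 4 abundant others, and the 5 closest genes by correlation; for the lists of neighbouring tissues, counts are given in place of all such genes. Some genes under this rule are not reported here. Replicate numbers are shared by the genotypes, but same-numbered libraries did not deviate together (r from -0.069 to 0.0102 over 3344 genes).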

Additional observations from a re-analysis of the deposited data

Results flagged for a closer look

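Of 90 groups of 4 libraries examined for a single library far from the others, 4 were marked, where chance marks about 4.5. In 3 of these the library was Bbs8-/- replicate 3 and the 3 values all contain its Trpm1 count. Its ratio of Trpm1 to Trpm3 reads was 1.009 against 1.098 to 1.116 in the other Bbs8-/- libraries, which on the log2 scale is 0.01255 against 0.1354 to 0.1584, and the share of Trpm1 in all TRP reads was 35.03% against 35.92% to 36.06%. This library had the lowest Trpm1 and the highest Trpm3 of its genotype. In Bbs8+/+ the level of Trpm1 relative to the RPE genes was 0.02543 in replicate 2 against 0.02873 to 0.02932 in the others.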

How the results depend on the processing

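The log2 fold change of Trpm1 stayed past the threshold in all 15 alternatives, between -0.315 and -0.247 with FDR of at most 0.0126. That of Trpm3 kept its direction but missed the threshold in 9 of 15: 0.21 with library totals only (FDR 0.0589), 0.218 without a filter (FDR 0.0546), 0.219 with the replicate block (FDR 0.0665), and 0.183 to 0.246 with a library left out, where 6 of 8 omissions missed it. The cause was not tested. Trpm4, Trpm7, Trpv2 and Trpv4 kept their direction and stayed short of the threshold throughout, Trpv2 having no value under filterByExpr. Trpc1 ranged from -0.0308 to 0.237 and Pkd2 from -0.0361 to 0.0595 with a library left out. Pkd2 also changed sign with RLE factors (0.00167), filterByExpr (0.00241), the replicate block (0.00123), without Gm42418 and mitochondrial genes (0.000125) and with DESeq2 (0.00179), always with FDR of at least 0.898. The block changed no other call among the 8 genes and left 134 and 129 genes called upward and downward. No library correlated best with its own number in the other genotype (0 of 8).

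The genes called numbered 152 upward and 157 downward, 92 and 81 at FDR 0.01, and 124 and 104 with DESeq2. With a library left out they ranged from 114 to 172 and from 105 to 150. The difference in log2 Trpm1 to Trpm3 ratio was -0.535 to -0.463. List medians moved by more than the spread between libraries without a filter, where more genes entered, for the other TRP genes (0.0557), the polycystin list (0.754) and ciliary body genes (0.256), and with filterByExpr for ON bipolar genes (0.428). With a library left out the medians ranged from -0.331 to 0.109 for other TRP genes, -0.0323 to 0.0283 for calcium genes, -0.301 to -0.117 for melanocyte genes, -0.0851 to 0.132 for Müller glia, 2.63 to 2.91 for lens and 0.894 to 1.18 for Y-linked genes. Of the other named genes, those that changed sign did so only with a library left out and were called in no setting, with ranges of -0.112 to 0.00217 for Sox10, -0.110 to 0.101 for Kit, -0.440 to 0.224 for Lrit3, -0.0927 to 0.00371 for Six3, -0.0145 to 0.0736 for Tyr, -0.00125 to 0.0658 for Atp2b1, -0.0966 to 0.0149 for Pkd1, -0.0647 to 0.0884 for Dnajb11, -0.0543 to 0.681 for Trpc4, -0.268 to 0.510 for Trpc6 and -0.140 to 0.559 for Trpm5. Without Bbs8+/+ replicate 3, Slc24a5, Ttr and Rpe65 passed the threshold, Ttr also without Gm42418 and mitochondrial genes (0.0939), Myo5a passed it without Bbs8-/- replicate 2, and Lyz2 missed it with DESeq2. Trpv2 had at most 16 counts per library, and for the TRP genes with 0 counts levels under 1.04 to 1.83 CPM cannot be told from absence.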
